A study of Rattus norvegicus with 8 samples.

Results

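The Toll-like receptors (TLRs), the C-type lectin genes of the Clec series and a set of their companions were examined in sciatic nerve allografts of the rat. Genes were taken when their symbol was Tlr or Clec followed by a number, or was Nod1, Nod2, Nlrp3, Nlrc4, Cd14, Ly96, Ly86, Cd180 or Myd88, and when at least 2 libraries held a normalized read count of at least 10. Of 32545 genes in the table, 50 had such a symbol and 45 of these also passed the filter on counts. They comprised 11 Tlr genes, 26 Clec genes and 8 companions. Clec18a, Clec3a, Clec4f, Clec4g and Clec4m did not reach the filter, and Ly96 was not analysed here.

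RNA was sequenced from 3 PEG-fused peripheral nerve allografts (PNAs), 3 negative control (NC) PNAs and 2 unoperated (Unop) sciatic nerves, each from a different animal. All rats were outbred female Sprague Dawley (Envigo) of 3 to 6 months of age. A PNA is a piece of sciatic nerve from a donor rat sutured into a gap in the sciatic nerve of a host, and donor and host were neither tissue matched nor given immune suppression. Both kinds of PNA had the same hypotonic wash, methylene blue and microsutures, and were excised at 14 days postoperatively (PO). The PEG-fused PNAs also received polyethylene glycol (PEG), which joins closely apposed cut axons, whereas the NC PNAs were not treated with PEG. Unop nerves had neither surgery nor PEG. Each library was made from whole tissue, in which RNA of donor and host cells is mixed, and in such bulk samples fewer cells of a type and less RNA per cell cannot be told apart.

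TLRs and C-type lectin receptors are pattern recognition receptors, with which macrophages, dendritic cells and other cells sense microbes and the debris of damaged cells. TLRs at the cell surface bind lipids and proteins, and TLRs in endosomes bind nucleic acids or profilin. Most TLRs signal through the adaptor MYD88 to NF-kB. C-type lectin receptors bind sugars or proteins and either activate through Syk and Card9 or inhibit through phosphatases. After nerve injury, Schwann cells and the macrophages that clear myelin use TLRs, and in allografts the same receptors act on the cells that present donor antigen.

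Each library held from 32472925 to 39959620 reads on genes. Values are read counts that the authors divided by the DESeq2 size factor of each library, and they are given in the order of the replicates. Fold changes are on the scale log2(normalized read count + 1), on which changes at low counts come out too small. They were tested with limma in 1 fit of the 8 libraries, and a gene is said to have risen or fallen where its p, adjusted over 16478 tested genes, was below 0.05. Counts were not scaled for transcript length, so levels are compared between samples and not between genes. Schwann cell markers (Sox10, S100b, Prx) were present in every library, with summed normalized read counts of 285655 to 311542 in Unop nerves, 19217 to 19897 in PEG-fused PNAs and 6529.7 to 12106 in NC PNAs. NC 1 and NC 3 stood apart in skeletal muscle fibre genes (Acta1, Ckm, Tnnt3), which summed to 345240 and 127767 in them and to between 1984 and 18459 in the other 6 libraries. Macrophage markers (Cd68, Adgre1, Csf1r, Aif1, Itgam, Cd163) summed to 49920.4 to 55779 in PEG-fused PNAs, 63976 to 73852 in NC PNAs and 9723 to 12582 in Unop nerves, and 4 of the 6 were lower in PEG-fused than in NC PNAs. Itgam and Cd68 did not pass the test. For Cd68 every PEG-fused PNA lay above every NC PNA (log2 fold change 0.36, adjusted p = 0.264). Of the dendritic cell and neutrophil markers, 3 of 5 each were lower in PEG-fused than in NC PNAs. The T cell (5 of 5), NK cell (3 of 3) and B cell markers (4 of 4) were all lower, and no marker of these lists was higher. Of 3 platelet markers, 2 were lower and 1, Pf4, was higher, and 0 of 4 mast cell markers passed the test. Schwann cell markers were higher in 2 of 3 cases and fibroblast markers in 3 of 4. Over all tested genes, 13.9% were lower and 15.0% were higher. The part of these differences in the values that follow was not tested.

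The comparison of PEG-fused with NC PNAs asks how far the receptors of innate immunity differed between grafts with and without PEG. Of the 45 genes, 26 had fallen and 1, Clec5a, had risen in PEG-fused compared with NC PNAs. Over all tested genes, 13.9% had fallen and 15.0% had risen. The median log2 fold change was -0.70 over the 45 genes and 0.00 over all tested genes. With a log2 fold change beyond 1 also required, 17 genes had fallen and 1 had risen, beside 7.14% and 4.41% of all tested genes. In 27 genes every PEG-fused PNA lay below every NC PNA, and in Clec5a and Clec2dl1 every PEG-fused PNA lay above. Such separation downwards was found in 23.3% of all tested genes and upwards in 25.6%. The decrease was spread over the roles unevenly, from 4 of 4 cytosolic receptors and 4 of 4 co-receptors and adaptors to 0 of 5 endothelial, secreted and other lectin-like proteins.

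**Figure D1:**
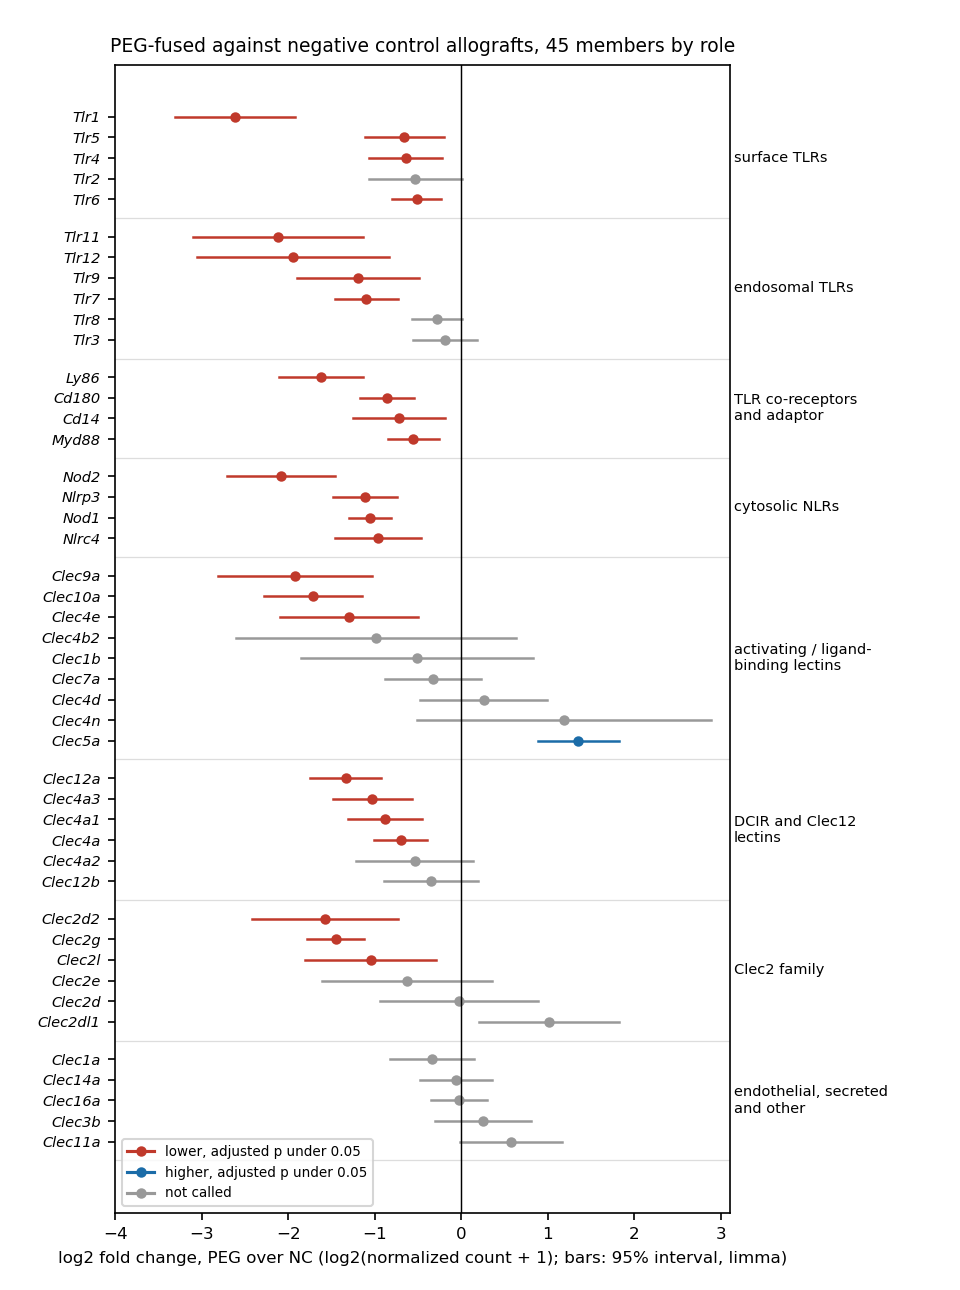
Log2 fold change of PEG-fused over NC PNAs (x axis, log2(normalized read count + 1) scale) for the 45 genes, 1 per line and grouped by role, with 95% intervals from limma as bars. Red points are the 26 genes that fell, the blue point is Clec5a, the gene that rose, and grey points did not pass the threshold; Tlr1 lies farthest to the left at -2.62.

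The promoters of the 3 genes with the largest decreases for which RefSeq gave a promoter window (Tlr1, Tlr11, Clec9a) and of the gene that rose (Clec5a) are shown, so that what precedes genes of opposite direction can be set side by side. Each runs 5′ to 3′ from 250 bases before to 50 bases after the RefSeq start of the gene on the build GRCr8, and capitals mark matches to the motifs searched.
Tlr1, chr14:43747571-43747870, plus strand: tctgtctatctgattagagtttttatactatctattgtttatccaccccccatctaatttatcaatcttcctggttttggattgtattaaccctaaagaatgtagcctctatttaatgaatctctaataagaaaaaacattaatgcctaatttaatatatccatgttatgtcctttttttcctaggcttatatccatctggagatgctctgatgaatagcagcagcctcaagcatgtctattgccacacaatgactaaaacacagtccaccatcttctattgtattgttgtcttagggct
Tlr11, chr15:26018737-26019036, plus strand: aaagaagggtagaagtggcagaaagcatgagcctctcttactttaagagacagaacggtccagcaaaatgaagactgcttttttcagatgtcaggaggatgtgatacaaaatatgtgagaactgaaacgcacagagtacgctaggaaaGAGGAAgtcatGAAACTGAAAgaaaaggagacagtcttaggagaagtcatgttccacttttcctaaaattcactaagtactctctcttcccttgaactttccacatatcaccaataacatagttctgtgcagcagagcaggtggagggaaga
Clec9a, chr4:164546073-164546372, plus strand: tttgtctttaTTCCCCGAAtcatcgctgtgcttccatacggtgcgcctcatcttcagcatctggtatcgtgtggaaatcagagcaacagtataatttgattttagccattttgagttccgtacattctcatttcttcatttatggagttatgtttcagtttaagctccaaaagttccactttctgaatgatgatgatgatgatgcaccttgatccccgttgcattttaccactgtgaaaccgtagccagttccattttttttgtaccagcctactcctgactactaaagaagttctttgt
Clec5a, chr4:70383457-70383756, minus strand: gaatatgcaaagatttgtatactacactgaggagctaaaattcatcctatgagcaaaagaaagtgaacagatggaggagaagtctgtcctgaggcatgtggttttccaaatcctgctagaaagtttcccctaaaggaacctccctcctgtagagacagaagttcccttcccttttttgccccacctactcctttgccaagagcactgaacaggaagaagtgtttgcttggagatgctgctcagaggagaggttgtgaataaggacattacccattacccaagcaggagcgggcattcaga
Tlr11 held GAGGAA, the core bound by the myeloid factor PU.1, with its first base at -102, and the interferon-stimulated response element (ISRE), which is GAAA, any 2 bases and GAAA, at -91. Clec9a held the interferon gamma activated site (GAS) TTCNNNGAA at -240. No searched motif was matched in the windows of Tlr1 and Clec5a. Of the 45 genes, 36 had a promoter window in the RefSeq table. GAGGAA was found on either strand in 19 of the 36 windows (52.8%) and in 27.6% of all 33469 windows of the table. The ISRE was found in 4 of 36 (11.1%) against 3.92%, the composite element of ETS and IRF factors (GGAA, any 2 bases and GAAA) in 4 (11.1%) against 2.94%, TTCNNNGAA in 4 (11.1%) against 8.87%, the AP-1 site TGANTCA in 4 (11.1%) against 7.33% and the NF-kB site (GGGA, any base, TT, any base and CC) in 1 (2.78%) against 1.11%. The composite element can overlap with GAGGAA and with the ISRE. These matches describe letters in a window and carry no test.

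Among the TLRs of the cell surface, Tlr1, Tlr4, Tlr5 and Tlr6 fell in PEG-fused relative to NC PNAs and Tlr2 did not pass the test. Tlr1, which pairs with Tlr2 to bind triacylated lipopeptides, had normalized read counts of 329, 137 and 265 in the PEG-fused PNAs, 1447, 1463 and 1322 in the NC PNAs, and 36.5 and 25.0 in the Unop nerves. Every NC PNA lay above every PEG-fused PNA, and PEG-fused PNAs lay between the NC PNAs and the Unop nerves. Tlr1 was 6.13-fold lower in PEG-fused than in NC PNAs (log2 fold change -2.62, SE 0.30, adjusted p = 0.00107), the largest decrease among the 45 genes.

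Tlr2, the partner shared by Tlr1 and Tlr6, had 3248, 2878 and 2555 in the PEG-fused PNAs, 3364, 4614 and 4649 in the NC PNAs, and 428 and 226 in the Unop nerves. The PEG-fused PNAs lay below the NC PNAs by a smaller margin, and the difference did not pass the test (log2 fold change -0.53, 95% interval -1.07 to 0.0031, adjusted p = 0.123). It passed when the Unop nerves were left out of the fit (adjusted p = 0.0419) or 1 of them was (adjusted p = 0.0413 without Unop 1 and 0.0416 without Unop 2). Tlr6, which pairs with Tlr2 to bind diacylated lipopeptides, had 388 to 468 in PEG-fused PNAs, 579 to 679 in NC PNAs and 119 to 128 in Unop nerves (log2 fold change -0.52, SE 0.13, adjusted p = 0.0175), and the adjusted p was 0.0699 without PEG 2 and 0.0507 without NC 1. Tlr6 and Tlr1 are neighbours in the genome and near relatives in sequence, so that counting may have lost reads that matched both.

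Tlr4, the receptor for lipopolysaccharide, and Tlr5, the receptor for flagellin, differed less than Tlr1 did. Tlr4 had 923 to 1141 in PEG-fused PNAs, 1165 to 1872 in NC PNAs and 428 to 509 in Unop nerves (log2 fold change -0.64, SE 0.19, adjusted p = 0.0333). Tlr5 had 568 to 692 in PEG-fused PNAs, 730.1 to 1308 in NC PNAs and 180.3 to 185 in Unop nerves (log2 fold change -0.66, SE 0.20, adjusted p = 0.0390). In both genes the groups did not overlap, but the margin was small: the highest PEG-fused PNA had 1141 and the lowest NC PNA 1165 for Tlr4. The call for Tlr4 was lost without PEG 2, PEG 3, NC 1 or NC 3. The adjusted p was 0.106 without PEG 2, 0.103 without PEG 3, 0.0845 without NC 1 and 0.0996 without NC 3. The log2 fold change of Tlr4 ran from -0.61 to -0.51 in these fits. Fewer of all tested genes fell in these fits too, from 1390 without PEG 2 to 2088 without NC 1, beside 2286 with every library. The call for Tlr5 was lost with only PEG-fused and NC PNAs in the fit (adjusted p = 0.0568) and without each library but NC 1, with an adjusted p of 0.0945 without PEG 1, 0.0713 without PEG 2, 0.119 without PEG 3, 0.0839 without NC 2, 0.0947 without NC 3, 0.0570 without Unop 1 and 0.0574 without Unop 2.

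Of the 6 TLRs of endosomes, Tlr7, Tlr9, Tlr11 and Tlr12 fell in PEG-fused relative to NC PNAs, while Tlr3 and Tlr8 did not pass the test. Tlr11, a receptor for profilin and flagellin in rodents, had 365, 104 and 215 in the PEG-fused PNAs, 862, 1246 and 634 in the NC PNAs, and 40.8 and 38.8 in the Unop nerves. Tlr12, which acts with Tlr11 on profilin, had 195, 53.3 and 146 in the PEG-fused PNAs, 458, 638 and 304 in the NC PNAs, and 11.8 and 18.8 in the Unop nerves. In both genes PEG 2 was the lowest PEG-fused PNA and NC 2 the highest NC PNA, and the groups did not overlap. Tlr11 was 4.35-fold lower (log2 fold change -2.12, SE 0.43, adjusted p = 0.00836) and Tlr12 3.85-fold lower (log2 fold change -1.95, SE 0.48, adjusted p = 0.0195) in PEG-fused than in NC PNAs, and the call for Tlr12 was lost without NC 2 (adjusted p = 0.0555).

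Tlr7, a receptor for single-stranded RNA, had 2016, 1783 and 1794 in the PEG-fused PNAs, 4018, 3779 and 4168 in the NC PNAs, and 559 and 350.2 in the Unop nerves. The lowest NC PNA thus held 3779 and the highest PEG-fused PNA 2016, and Tlr7 was 2.14-fold lower in PEG-fused PNAs (log2 fold change -1.10, SE 0.16, adjusted p = 0.00221). Tlr8, which lies next to Tlr7 in the genome, had 2381, 2066 and 2023 in the PEG-fused PNAs, 2575, 2333 and 2985 in the NC PNAs, and 689 and 564 in the Unop nerves. Its groups overlapped, and the difference did not pass the test (log2 fold change -0.28, 95% interval -0.57 to 0.0024, adjusted p = 0.123).

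Tlr9, the receptor for unmethylated CpG DNA, had 78.5 to 168 in PEG-fused PNAs, 195 to 313 in NC PNAs and 19.3 to 22.5 in Unop nerves (log2 fold change -1.19, SE 0.31, adjusted p = 0.0216). The call for Tlr9 was lost without PEG 2, PEG 3, NC 2 or NC 3, with an adjusted p of 0.0760 without PEG 2, 0.0702 without PEG 3, 0.0543 without NC 2 and 0.0717 without NC 3. Tlr3, which binds double-stranded RNA and signals without MYD88, had 1650.1 to 1751 in PEG-fused PNAs, 1683 to 2499 in NC PNAs and 680.4 to 878 in Unop nerves (log2 fold change -0.19, 95% interval -0.56 to 0.18, adjusted p = 0.402). The 3 PEG-fused PNAs lay within the range of the NC PNAs or just below it.

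All 4 co-receptors and adaptors fell in PEG-fused relative to NC PNAs. Cd180, a TLR-like receptor that tunes the response to lipopolysaccharide, had 1153 to 1278 in PEG-fused PNAs, 1977 to 2666 in NC PNAs and 108.8 to 128 in Unop nerves (log2 fold change -0.86, SE 0.13, adjusted p = 0.00297). Ly86, the protein bound to it as MD-1, had 1695, 1068 and 1121 in the PEG-fused PNAs, 4775, 3935 and 3166 in the NC PNAs, and 266 and 215 in the Unop nerves and was 3.08-fold lower (log2 fold change -1.62, SE 0.21, adjusted p = 0.00150). Ly86 thus differed by a larger factor than Cd180 between the 2 kinds of PNA, although no test of that difference was made. Cd14, which hands lipopolysaccharide to Tlr4, had 3206 to 3632 in PEG-fused PNAs, 4700.4 to 6715 in NC PNAs and 837 to 1642 in Unop nerves (log2 fold change -0.72, SE 0.23, adjusted p = 0.0488). Myd88, the adaptor of most TLRs, had 1677 to 1947 in PEG-fused PNAs, 2303 to 3158 in NC PNAs and 961 to 1109.7 in Unop nerves (log2 fold change -0.55, SE 0.13, adjusted p = 0.0152). The call for Cd14 was lost with all libraries kept under TMM rescaling (adjusted p = 0.0517), with no filter on low counts (adjusted p = 0.0589) and in a robust fit (adjusted p = 0.0563). It was also lost without each PEG-fused PNA, NC 2 or NC 3, with an adjusted p of 0.124 without PEG 1, 0.105 without PEG 2, 0.111 without PEG 3, 0.129 without NC 2 and 0.109 without NC 3. The call for Myd88 was lost without PEG 2 (adjusted p = 0.0625).

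The 4 cytosolic receptors of the NOD-like family (NLRs) all fell in PEG-fused relative to NC PNAs. Nod2, which senses muramyl dipeptide from bacterial walls, had 188, 262 and 164 in the PEG-fused PNAs, 718, 895 and 976 in the NC PNAs, and 20.4 and 38.8 in the Unop nerves. The lowest NC PNA lay well above the highest PEG-fused PNA, and Nod2 was 4.25-fold lower in PEG-fused PNAs (log2 fold change -2.09, SE 0.27, adjusted p = 0.00151).

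Nod1, which senses another peptidoglycan fragment, had 1630.4, 1336 and 1603 in the PEG-fused PNAs, 3255, 2921 and 3279 in the NC PNAs, and 2105 and 2413 in the Unop nerves. The PEG-fused PNAs were below both other groups, and the Unop nerves lay between the 2 kinds of PNA. Nod1 fell in PEG-fused compared with NC PNAs (log2 fold change -1.05, SE 0.11, adjusted p = 0.000652) and relative to Unop nerves (log2 fold change -0.57, SE 0.12, adjusted p = 0.00345), whereas it rose in NC PNAs relative to Unop nerves (log2 fold change 0.48, SE 0.12, adjusted p = 0.00696). The last call was lost without Unop 1 (adjusted p = 0.0551).

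Nlrp3 and Nlrc4 each build an inflammasome, the complex that activates caspase-1. Nlrp3 had 924 to 1261 in PEG-fused PNAs, 1915 to 2478 in NC PNAs and 171 to 220.0 in Unop nerves (log2 fold change -1.11, SE 0.16, adjusted p = 0.00233). Nlrc4 had 346 to 430.1 in PEG-fused PNAs, 679 to 845 in NC PNAs and 38.6 to 70.0 in Unop nerves (log2 fold change -0.96, SE 0.22, adjusted p = 0.0133), and its call was lost without PEG 2 (adjusted p = 0.0552). In both genes the highest PEG-fused PNA lay below the lowest NC PNA and above both Unop nerves.

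**Figure D2:**
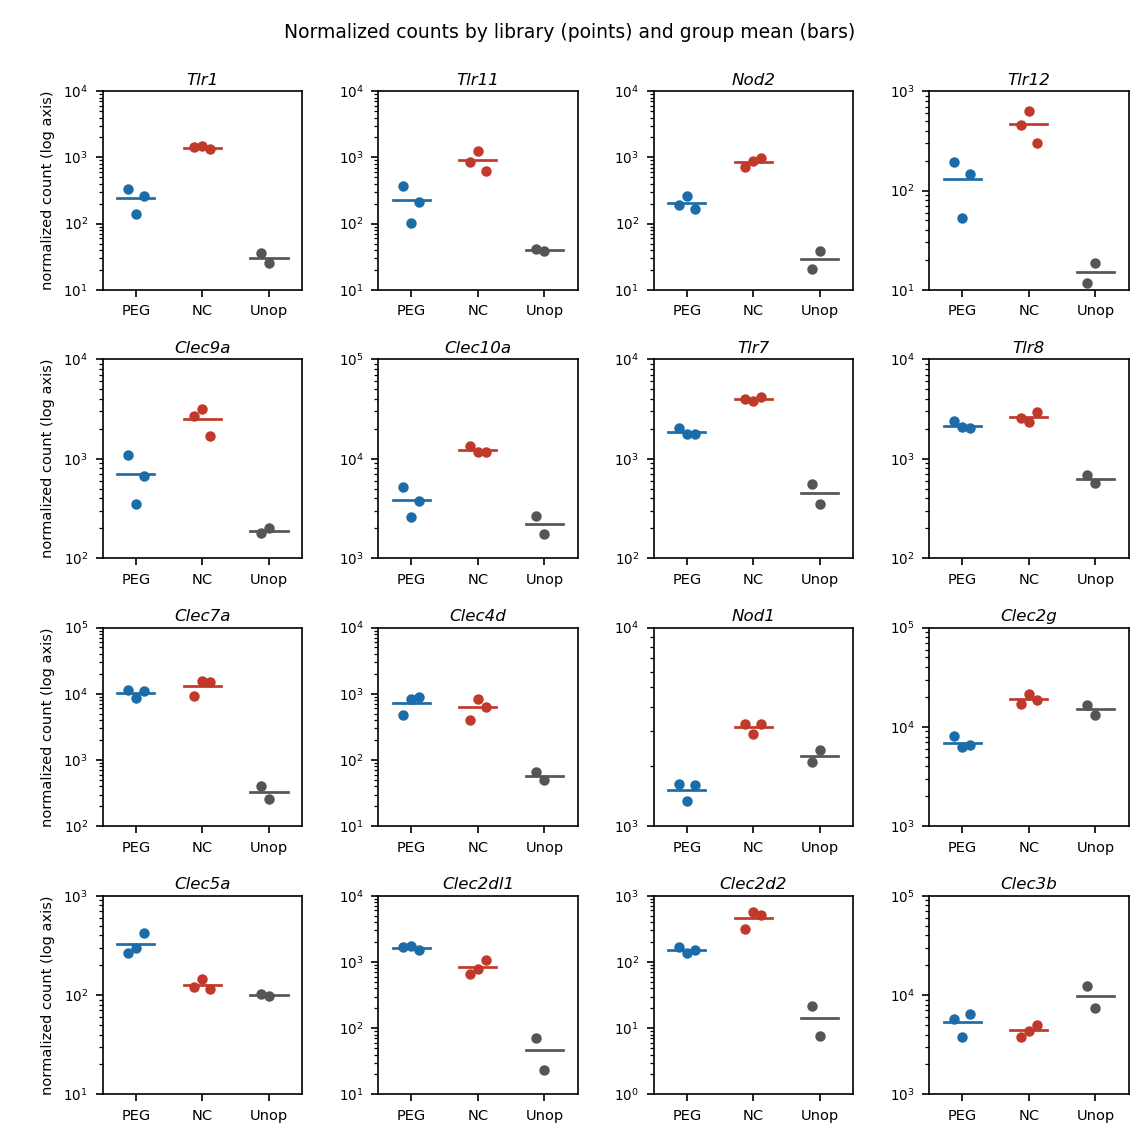
Normalized read counts (y axis, log scale) of 16 of the 45 genes in each library (points) with the mean of each group (bars), for 3 PEG-fused and 3 NC PNAs and 2 Unop nerves. In Tlr7 the PEG-fused PNAs lie between 1783 and 2016, all below the NC PNAs, whereas in Tlr8, Clec7a and Clec4d both kinds of PNA overlap and in Nod1 and Clec2g the PEG-fused PNAs lie below the Unop nerves too.

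Among the 9 activating or ligand-binding lectin receptors, Clec9a, Clec10a and Clec4e fell, Clec5a rose, and Clec7a, Clec4d, Clec4n, Clec4b2 and Clec1b did not pass the test between PEG-fused and NC PNAs. Clec9a, with which cross-presenting dendritic cells bind the actin of dead cells, had 1099, 349.6 and 671 in the PEG-fused PNAs, 2668, 3132 and 1693 in the NC PNAs, and 178 and 200.1 in the Unop nerves. PEG 2 was the lowest of the PNAs, and the groups did not overlap. Clec9a was 3.80-fold lower in PEG-fused than in NC PNAs (log2 fold change -1.92, SE 0.39, adjusted p = 0.00841). The dendritic cell markers Xcr1 and Batf3 moved in the same direction, with 429, 119.7 and 183 in the PEG-fused PNAs and 1375, 1543 and 813 in the NC PNAs for Xcr1 (log2 fold change -2.50) and 303, 155 and 229 in the PEG-fused PNAs and 482, 628 and 469 in the NC PNAs for Batf3 (log2 fold change -1.24), and PEG 2 was the lowest PNA in each. Of the other dendritic cell markers listed, Ccr7 fell (log2 fold change -3.10, adjusted p = 0.00150). Flt3 (log2 fold change -1.25, adjusted p = 0.0737) and Zbtb46 (log2 fold change -0.15, adjusted p = 0.437) did not pass the test. For Zbtb46, PEG 2 was the highest PEG-fused PNA. The part of these markers in the difference of Clec9a was not tested.

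Clec10a, a galactose-type lectin of macrophages and dendritic cells, had 5169, 2613 and 3794 in the PEG-fused PNAs, 13293, 11576 and 11754 in the NC PNAs, and 2655 and 1727 in the Unop nerves. The PEG-fused PNAs reached down to the Unop nerves, with PEG 2 below Unop 1, and stayed far below the NC PNAs. It was 3.28-fold lower in PEG-fused than in NC PNAs (log2 fold change -1.71, SE 0.25, adjusted p = 0.00219).

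Clec5a, a myeloid receptor that signals through the adaptor DAP12 (Tyrobp), was the gene that rose, with 264, 299 and 426 in the PEG-fused PNAs, 121, 145 and 114 in the NC PNAs, and 102 and 98.8 in the Unop nerves. The NC PNAs lay close to the Unop nerves, and each PEG-fused PNA lay above both groups. Clec5a was 2.55-fold higher in PEG-fused than in NC PNAs (log2 fold change 1.35, SE 0.21, adjusted p = 0.00267). Tyrobp itself had means of 14841 and 18484, and it did not pass the test (log2 fold change -0.32, 95% interval -0.80 to 0.16).

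Clec4e (Mincle) and Clec4d are partners that bind the mycobacterial cord factor and lie close together in the genome. Clec4e had 338, 467 and 488 in the PEG-fused PNAs, 596, 1764 and 1092 in the NC PNAs, and 113 and 108.8 in the Unop nerves, with NC 1 the lowest NC PNA. It fell in PEG-fused relative to NC PNAs (log2 fold change -1.30, SE 0.35, adjusted p = 0.0258). The call was lost without NC 3 or any PEG-fused PNA, with an adjusted p of 0.0811 without PEG 1, 0.0643 without PEG 2, 0.0532 without PEG 3 and 0.0686 without NC 3. Clec4d had 479, 839.5 and 892 in the PEG-fused PNAs, 401, 841 and 622 in the NC PNAs, and 66.5 and 50.03 in the Unop nerves. Here the groups of PNAs overlapped and no difference passed the test (log2 fold change 0.26, 95% interval -0.47 to 0.99, adjusted p = 0.582).

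Clec7a (Dectin-1), the receptor for fungal beta-glucan, had 11472, 8555 and 10857 in the PEG-fused PNAs, 9149.7, 15339 and 14993 in the NC PNAs, and 408 and 256 in the Unop nerves. The PNAs of both kinds overlapped, NC 1 being below 2 of the PEG-fused PNAs (log2 fold change -0.33, 95% interval -0.88 to 0.23, adjusted p = 0.342). The remaining lectins of this kind were scarce. Clec4n (Dectin-2), which binds mannans, had 3.71, 15.0 and 26.3 in the PEG-fused PNAs, 1.79, 9.68 and 4.82 in the NC PNAs, and 0 and 0 in the Unop nerves (PEG-fused against NC PNAs, log2 fold change 1.19, 95% interval -0.51 to 2.89). Clec4b2, a rodent lectin of the same gene cluster as Clec4a and Clec4d, had 1.85 to 15.0 in PEG-fused PNAs, 10.6 to 29.05 in NC PNAs and 2.15 to 2.501 in Unop nerves (log2 fold change -0.99, 95% interval -2.60 to 0.63). Clec1b, the platelet receptor for podoplanin, had 8.41 to 36.1 in PEG-fused PNAs, 20.6 to 37.7 in NC PNAs and 13.8 to 41.9 in Unop nerves (log2 fold change -0.51, 95% interval -1.85 to 0.83). These intervals include both 0 and changes of more than 1 on the log2 scale, in one direction or the other.

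Of the 6 lectins of the DCIR and Clec12 kind, which include inhibitory receptors, Clec4a, Clec4a1, Clec4a3 and Clec12a fell in PEG-fused relative to NC PNAs. Clec12a, an inhibitory receptor for uric acid crystals, had 1322, 822 and 1109.7 in the PEG-fused PNAs, 2514, 2786 and 2786 in the NC PNAs, and 131 and 101 in the Unop nerves and was 2.53-fold lower (log2 fold change -1.34, SE 0.18, adjusted p = 0.00164). Clec4a3 had 2740.1 to 4012 in PEG-fused PNAs, 5810.3 to 7101 in NC PNAs and 415 to 669.7 in Unop nerves (log2 fold change -1.03, SE 0.20, adjusted p = 0.00728). Clec4a1 had 2989.6 to 4191 in PEG-fused PNAs, 5681 to 7133 in NC PNAs and 712 to 1095 in Unop nerves (log2 fold change -0.88, SE 0.19, adjusted p = 0.00967). These 3 genes were separated between the kinds of PNA, and each PNA lay above both Unop nerves.

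Clec4a, the inhibitory receptor DCIR itself, had 735 to 952 in PEG-fused PNAs, 1277 to 1361 in NC PNAs and 159 to 201 in Unop nerves (log2 fold change -0.70, SE 0.13, adjusted p = 0.00660). Clec4a2, next to it in the genome, had 457, 289.8 and 437 in the PEG-fused PNAs, 417, 767 and 558 in the NC PNAs, and 17.2 and 10.01 in the Unop nerves, and its groups of PNAs overlapped (log2 fold change -0.54, 95% interval -1.22 to 0.14, adjusted p = 0.205). Clec12b, another inhibitory receptor, had 34.6 to 43.6 in PEG-fused PNAs, 40.9 to 56.9 in NC PNAs and 47.2 to 58.8 in Unop nerves and did not pass the test in any comparison (PEG-fused against NC PNAs, log2 fold change -0.35, 95% interval -0.89 to 0.19). The Clec4a genes are close copies of each other, so reads may have been split between them or lost in counting.

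The Clec2 family includes ligands for the NKR-P1 receptors of NK cells. Of its 6 genes, Clec2d2, Clec2g and Clec2l fell in PEG-fused relative to NC PNAs, and Clec2d, Clec2dl1 and Clec2e did not pass the test. Clec2g had 8075, 6221 and 6566 in the PEG-fused PNAs, 16854, 21295 and 18865 in the NC PNAs, and 16803 and 13234 in the Unop nerves. The lowest NC PNA lay just above the higher Unop nerve, and the PEG-fused PNAs lay below both groups. It fell relative to NC PNAs (log2 fold change -1.45, SE 0.14, adjusted p = 0.000631) and relative to Unop nerves (log2 fold change -1.11, SE 0.16, adjusted p = 0.000532), while NC PNAs and Unop nerves did not differ past the threshold (log2 fold change 0.34, SE 0.16, adjusted p = 0.0929).

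Clec2d2 and Clec2dl1 had log2 fold changes of opposite sign. Clec2d2 had 171, 135 and 151 in the PEG-fused PNAs, 318, 562 and 519 in the NC PNAs, and 21.5 and 7.504 in the Unop nerves and fell in PEG-fused relative to NC PNAs (log2 fold change -1.57, SE 0.37, adjusted p = 0.0151), with an adjusted p of 0.0580 without PEG 2 and 0.0504 without NC 3. Clec2dl1 had 1712, 1721 and 1503 in the PEG-fused PNAs, 647, 785 and 1058 in the NC PNAs, and 70.8 and 23.8 in the Unop nerves. Each PEG-fused PNA lay above each NC PNA for Clec2dl1, 2.02-fold higher on the fitted scale, but the difference missed the threshold (log2 fold change 1.01, SE 0.35, adjusted p = 0.0638). It passed with edgeR (adjusted p = 0.0318), with DESeq2 (adjusted p = 0.00272), with a pseudocount of 8 (adjusted p = 0.0442), with only the PNAs in the fit (adjusted p = 0.00885) and without either Unop nerve (adjusted p = 0.00919 without Unop 1 and 0.00917 without Unop 2). Both are members of a cluster of near copies, between which counting may have split reads.

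Clec2l had 100.0 to 229 in PEG-fused PNAs, 281 to 346 in NC PNAs and 111 to 209 in Unop nerves (log2 fold change -1.05, SE 0.33, adjusted p = 0.0452). Its call was lost with edgeR (adjusted p = 0.0590), with no filter on low counts (adjusted p = 0.0545) and without PEG 2, PEG 3 or any NC PNA, with an adjusted p of 0.136 without PEG 2, 0.101 without PEG 3, 0.0633 without NC 1, 0.0976 without NC 2 and 0.114 without NC 3. Clec2d had 20.6 to 46.7 in PEG-fused PNAs, 21.4 to 47.3 in NC PNAs and 6.25 to 6.44 in Unop nerves (log2 fold change -0.028, 95% interval -0.94 to 0.89). Clec2e had 10.2, 4.67 and 5.63 in the PEG-fused PNAs, 6.26, 12.9 and 14.5 in the NC PNAs, and 21.5 and 26.3 in the Unop nerves (PEG-fused against NC PNAs, log2 fold change -0.63, 95% interval -1.61 to 0.35). The last 2 genes had few reads in the PNAs, and their groups of PNAs overlapped.

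None of the 5 endothelial, secreted and other lectin-like genes passed the test between PEG-fused and NC PNAs. Clec14a, a receptor of endothelial cells, had 1515, 1056 and 1312 in the PEG-fused PNAs, 1222, 1187 and 1648 in the NC PNAs, and 2935 and 2271 in the Unop nerves (PEG-fused against NC PNAs, log2 fold change -0.062, 95% interval -0.47 to 0.35). Clec1a, found on endothelium and myeloid cells, had 341 to 548 in PEG-fused PNAs, 465 to 726 in NC PNAs and 587 to 607 in Unop nerves (log2 fold change -0.34, 95% interval -0.83 to 0.15). Of 4 endothelial markers, Kdr was lower in PEG-fused than in NC PNAs (log2 fold change -0.59, adjusted p = 0.0488), and Cdh5, Tek and Emcn did not pass the test.

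Clec3b encodes tetranectin, a secreted protein that binds plasminogen, and Clec11a encodes a secreted growth factor of bone and blood. Clec3b had 5763, 3804 and 6429.6 in the PEG-fused PNAs, 3801, 4398 and 5006 in the NC PNAs, and 12281 and 7424 in the Unop nerves (PEG-fused against NC PNAs, log2 fold change 0.25, 95% interval -0.30 to 0.80). Clec11a had 1102 to 1723 in PEG-fused PNAs, 617 to 1220.3 in NC PNAs and 1063 to 1221 in Unop nerves (log2 fold change 0.57, 95% interval -0.016 to 1.16, adjusted p = 0.130). Clec16a, a protein of endosomes and mitophagy, had 313 to 341 in PEG-fused PNAs, 287 to 368 in NC PNAs and 308 to 373 in Unop nerves (log2 fold change -0.025, 95% interval -0.35 to 0.30).

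The comparisons with Unop nerves ask which receptors the PNAs of each kind gained or lost relative to nerve that had no surgery. They share the 2 Unop nerves, so their values are given side by side and not as support for each other. In PEG-fused PNAs 33 of the 45 genes had risen and 5 had fallen, beside 29.1% and 28.6% of all tested genes. In NC PNAs 35 had risen and 2 had fallen, beside 32.2% and 32.3% of all tested genes. The median log2 fold change of the 45 genes over Unop nerves was 1.93 in PEG-fused PNAs and 2.51 in NC PNAs, with 0.01 and 0.02 over all tested genes. With a log2 fold change beyond 1 also required, 31 genes had risen and 3 had fallen in PEG-fused PNAs (16.7% and 15.6% of all tested genes), and 34 had risen and 1 had fallen in NC PNAs (19.6% and 19.0%). Every PEG-fused PNA lay above both Unop nerves in 32 genes and below both in 7, beside 37.3% and 37.2% of all tested genes. Every NC PNA lay above both in 37 genes and below both in 3, beside 37.2% and 37.4%.

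All 11 TLRs rose in both kinds of PNA relative to Unop nerves. The log2 fold changes of the 5 surface TLRs ran from 1.10 (Tlr4) to 3.20 (Tlr2) in PEG-fused PNAs and from 1.74 (Tlr4) to 5.50 (Tlr1) in NC PNAs. Those of the 6 endosomal TLRs ran from 1.14 (Tlr3) to 2.87 (Tlr12) in PEG-fused PNAs and from 1.34 (Tlr3) to 4.81 (Tlr12) in NC PNAs. Tlr1 was 7.37-fold higher in PEG-fused PNAs (log2 fold change 2.88, SE 0.34, adjusted p = 0.000166) and 45.2-fold higher in NC PNAs (log2 fold change 5.50, SE 0.34, adjusted p = 3.69e-06) than in Unop nerves, the largest increase of the 45 genes in NC PNAs. Macrophage markers rose as well, 5 of 6 in PEG-fused and 6 of 6 in NC PNAs, beside 29.1% and 32.2% of all tested genes. The part of these markers in the increase of the TLRs was not tested.

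The co-receptors and adaptors rose in both kinds of PNA, and so did the NLRs except for Nod1. The log2 fold changes of the 4 co-receptors and adaptors over Unop nerves ran from 0.84 (Myd88) to 3.35 (Cd180) in PEG-fused PNAs and from 1.39 (Myd88) to 4.21 (Cd180) in NC PNAs. Those of Nlrp3, Nod2 and Nlrc4 ran from 2.42 to 2.87 in PEG-fused PNAs and from 3.53 (Nlrp3) to 4.88 (Nod2) in NC PNAs.

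**Figure D3:**
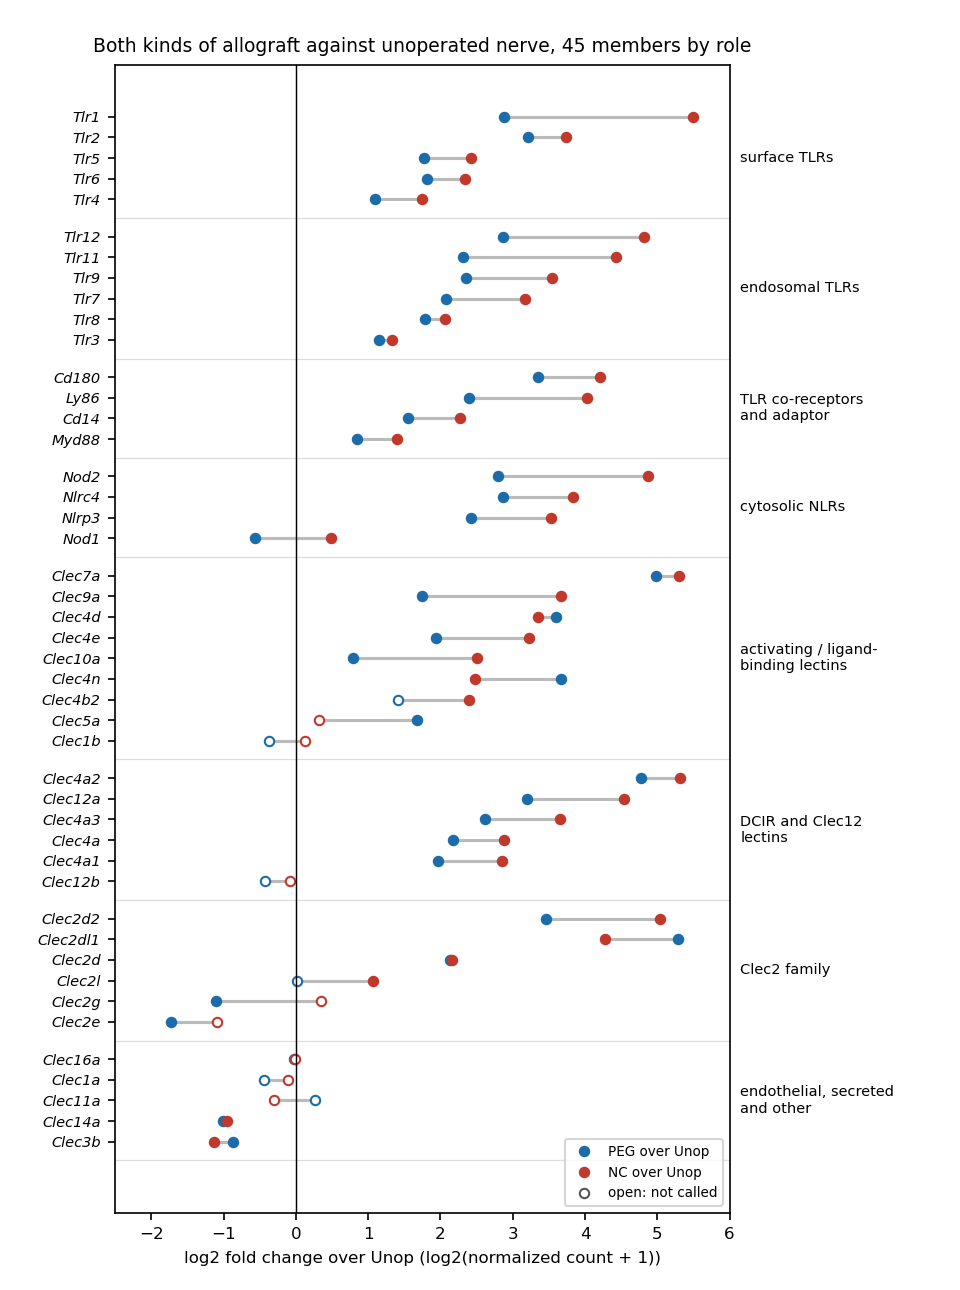
Log2 fold change over Unop nerves (x axis, log2(normalized read count + 1) scale) of PEG-fused PNAs (blue) and NC PNAs (red) for the 45 genes, 1 per line and grouped by role, with filled points for genes past the threshold. The 11 TLRs lie right of 0 in both kinds of PNA, whereas Clec14a (-1.01 and -0.95) and Clec3b (-0.88 and -1.13) lie left of 0 in both.

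Of the lectins with reads in the Unop nerves, Clec2dl1, Clec7a and Clec4a2 rose most in PEG-fused PNAs. Clec7a, with 408 and 256 in the Unop nerves, was 31.5-fold higher in PEG-fused PNAs (log2 fold change 4.98, SE 0.27, adjusted p = 3.33e-06) and 39.5-fold higher in NC PNAs (log2 fold change 5.30, SE 0.27, adjusted p = 1.69e-06). Clec2dl1 was 39.0-fold higher in PEG-fused PNAs (log2 fold change 5.28, SE 0.40, adjusted p = 1.44e-05) and 19.3-fold higher in NC PNAs (log2 fold change 4.27, SE 0.40, adjusted p = 2.97e-05). Clec4a2 was 27.4-fold higher in PEG-fused PNAs (log2 fold change 4.78, SE 0.33, adjusted p = 9.95e-06) and 39.9-fold higher in NC PNAs (log2 fold change 5.32, SE 0.33, adjusted p = 3.80e-06). In all 3 genes each PNA lay far above both Unop nerves, in which Clec4a2 had only 17.2 and 10.01 normalized read counts.

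Clec4n had no read in either Unop nerve, so that only a bound can be given for its increase. Set against a floor of 3 reads per library, which corresponds to a mean normalized read count of 3.49, the mean of the PEG-fused PNAs was at least 4.30-fold higher. PEG 1, with 3.71 (4 reads), was itself close to that floor. Clec4n reached a normalized read count of 10 only in PEG 2 and PEG 3 (15.0 and 26.3). It thus passed the filter through the PEG-fused PNAs alone, and its increase over Unop nerves there is not independent of the filter. The NC PNAs were at or close to the same floor, NC 1 with 2 reads lying below it. Clec4n is among the genes that passed the test in both kinds of PNA, but in NC PNAs (adjusted p = 0.0282) the call was lost with edgeR (adjusted p = 0.0672), with a pseudocount of 8 (adjusted p = 0.190) and without NC 2, NC 3 or either Unop nerve (adjusted p of 0.0754 without NC 2, 0.0634 without NC 3, 0.0967 without Unop 1 and 0.0963 without Unop 2). The medians of the 45 genes over Unop nerves are the same with Clec4n at its bound.

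Clec2d2 rose in both kinds of PNA (log2 fold change 3.46, SE 0.41, adjusted p = 0.000172 in PEG-fused PNAs and log2 fold change 5.04, SE 0.41, adjusted p = 1.50e-05 in NC PNAs). A further 9 lectins rose in both kinds of PNA, Clec12a, Clec4d, Clec4a3, Clec4a, Clec4a1, Clec4e, Clec2d, Clec9a and Clec10a. Their log2 fold changes over Unop nerves ran from 0.79 (Clec10a) to 3.60 (Clec4d) in PEG-fused PNAs and from 2.16 (Clec2d) to 4.53 (Clec12a) in NC PNAs. The increase of Clec10a in PEG-fused PNAs was lost with only the 2 groups in the fit (adjusted p = 0.0604) and without PEG 1, PEG 3, NC 3 or Unop 2 (adjusted p of 0.0900 without PEG 1, 0.0803 without PEG 3, 0.0518 without NC 3 and 0.260 without Unop 2), and that of Clec9a without Unop 1 (adjusted p = 0.0579).

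Clec5a rose in PEG-fused PNAs relative to Unop nerves (log2 fold change 1.68, SE 0.23, adjusted p = 0.000386) and did not pass the test in NC PNAs (log2 fold change 0.32, SE 0.23, adjusted p = 0.245). Clec4b2 and Clec2l passed in NC PNAs and not in PEG-fused PNAs. The log2 fold changes in PEG-fused and NC PNAs were 1.41 and 2.40 for Clec4b2, and 0.013 and 1.06 for Clec2l. Clec4b2 also passed in PEG-fused PNAs without PEG 1 (adjusted p = 0.0116). In NC PNAs, Clec4b2 had an adjusted p of 0.0701 without NC 2, 0.104 without Unop 1 and 0.0872 without Unop 2, and Clec2l of 0.0656 without NC 2, 0.0797 without NC 3 and 0.251 without Unop 2.

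The genes that fell relative to Unop nerves were Clec3b and Clec14a in both kinds of PNA and Clec2e, Clec2g and Nod1 in PEG-fused PNAs. For Clec14a the test gave log2 fold change -1.01, SE 0.20, adjusted p = 0.00273 in PEG-fused and log2 fold change -0.95, SE 0.20, adjusted p = 0.00319 in NC PNAs. For Clec3b it gave log2 fold change -0.88, SE 0.27, adjusted p = 0.0217 and log2 fold change -1.13, SE 0.27, adjusted p = 0.00598. The calls for Clec3b were lost without Unop 1, the higher of the Unop nerves, with an adjusted p of 0.190 in PEG-fused and 0.0622 in NC PNAs, and that in PEG-fused PNAs also without PEG 2 (adjusted p = 0.0534). Clec2e fell in PEG-fused PNAs (log2 fold change -1.72, SE 0.48, adjusted p = 0.0140), a call that was lost without Unop 2 (adjusted p = 0.0721). The endothelial markers Cdh5, Kdr, Tek and Emcn summed to 14241 to 15515 in Unop nerves, 8340.0 to 11656 in PEG-fused and 7699 to 10153 in NC PNAs. Relative to Unop nerves, 2 of the 4 were lower in PEG-fused PNAs (Tek, Emcn) and 3 in NC PNAs (Cdh5, Tek, Emcn). Over all tested genes, 28.6% and 32.3% were lower. Kdr did not pass the test in either (log2 fold change -0.14 and 0.45). The part of these markers in the decrease of Clec14a was not tested. Clec1a, Clec1b, Clec11a, Clec12b and Clec16a did not pass the test in either comparison with Unop nerves.

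Genes of one receptor system or one role did not keep one ratio to each other across the groups. Ratios of reads within a library do not depend on the scaling between libraries, and 6 pairs were followed in this way. They were partners or neighbours, except for Clec5a and Clec7a, which were only grouped under the same role. The pairs were chosen after their values had been seen, so the ratios are a description and carry no test. The ratio of Tlr7 to Tlr8 was 0.847, 0.863 and 0.886 in the PEG-fused PNAs, 1.56, 1.62 and 1.40 in the NC PNAs, and 0.812 and 0.621 in the Unop nerves. PEG-fused PNAs were thus close to the Unop nerves in this ratio while both genes were several fold above them. The ratio of Tlr1 to Tlr2 was 0.0478 to 0.104 in PEG-fused PNAs, 0.284 to 0.430 in NC PNAs and 0.0852 to 0.110 in Unop nerves. The ratio of Tlr1 to Tlr6 was 0.354 to 0.703, 2.13 to 2.33 and 0.196 to 0.306 in the same order. In both of these the NC PNAs stood above the other groups, and for Tlr1 to Tlr2 the PEG-fused PNAs overlapped with the Unop nerves.

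The lectin pairs had other patterns. The ratio of Clec4e to Clec4d was 0.547 to 0.706 in PEG-fused PNAs, 1.49 to 2.10 in NC PNAs and 1.69 to 2.18 in Unop nerves, so that here the PEG-fused PNAs stood apart from both other groups. The ratio of Clec2d2 to Clec2dl1 was 0.0782 to 0.100, 0.490 to 0.715 and 0.303 to 0.316. The ratio of Clec5a to Clec7a was 0.0230 to 0.0392, 0.00759 to 0.0132 and 0.250 to 0.385. In the last pair both kinds of PNA lay far below the Unop nerves, in which Clec7a was low.

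**Figure D4:**
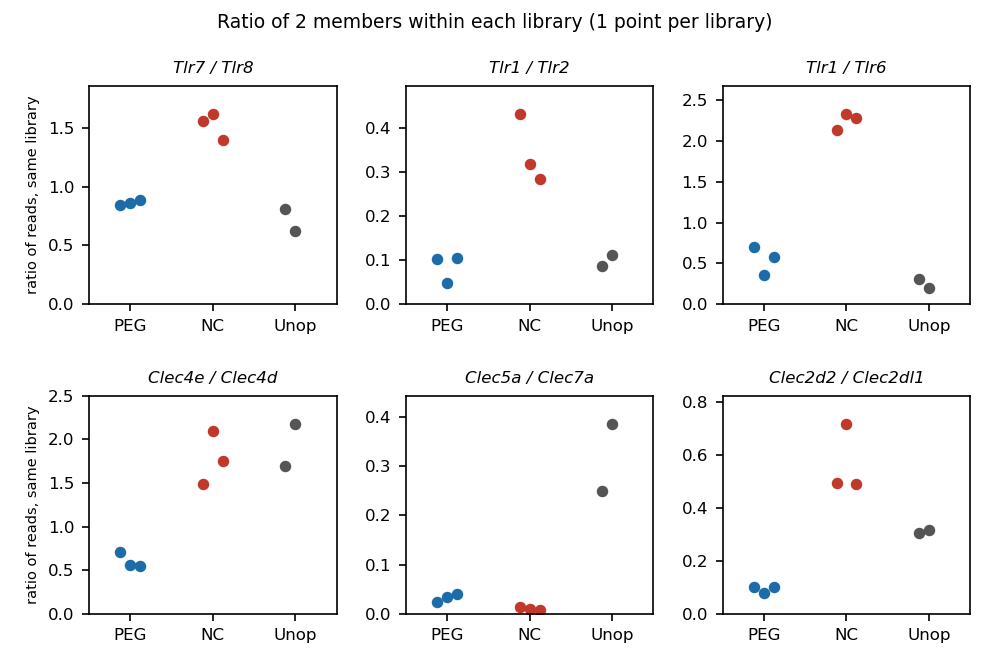
Ratio of the reads of 2 genes within each library (y axis, linear from 0, 1 panel per pair, 1 point per library) in the 3 groups. Tlr7 to Tlr8 lies at 0.886 or below in each PEG-fused PNA and Unop nerve and at 1.40 or above in each NC PNA, and Clec4e to Clec4d lies at 0.706 or below in PEG-fused PNAs and at 1.49 or above in the other 5 libraries.

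Other genes of these pathways were counted on 8 lists, 70 tested genes in all. Of 15 TLR adaptors and kinases, 5 fell and 0 rose in PEG-fused relative to NC PNAs, beside 13.9% and 15.0% of all tested genes. Ikbke (log2 fold change -0.85, adjusted p = 0.00335), Tbk1 (log2 fold change -0.66, adjusted p = 0.000897), Irak2 (log2 fold change -0.62, adjusted p = 0.00786) and Traf3 (log2 fold change -0.45, adjusted p = 0.0187) were the largest of them, of which Ikbke and Tbk1 are the kinases that switch on interferon genes. The other gene that fell was Ikbkb. The adaptors Tirap and Ticam2 and the kinases Irak1 and Irak4 did not pass the test.

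Of 4 chaperones and co-receptors, 1 fell and 0 rose, beside 13.9% and 15.0% of all tested genes. The gene that fell was Unc93b1, which carries endosomal TLRs to their compartment (log2 fold change -0.62, adjusted p = 0.00742). Of 11 inhibitors of TLR signalling, 8 fell and 0 rose. Socs1, an inhibitor of cytokine signalling, had 159, 90.7 and 84.4 in the PEG-fused PNAs, 1560.3, 1025 and 1127 in the NC PNAs, and 38.6 and 33.8 in the Unop nerves (log2 fold change -3.50, adjusted p = 0.000387). Its NC PNAs lay far above both other groups, and this was the largest decrease among the 11 inhibitors. Tnip3 (log2 fold change -2.48, adjusted p = 0.0441), Tnfaip3 (log2 fold change -1.92, adjusted p = 0.000472) and Ptpn6 (log2 fold change -1.25, adjusted p = 0.000623) followed, of which Tnfaip3 edits ubiquitin chains and Ptpn6 is a phosphatase of inhibitory receptors.

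Of 9 genes of lectin receptor signalling, 6 fell and 0 rose, beside 13.9% and 15.0% of all tested genes. Plcg2 (log2 fold change -1.01, adjusted p = 0.00148), Malt1 (log2 fold change -0.80, adjusted p = 0.00929), Vav1 (log2 fold change -0.78, adjusted p = 0.0219) and Prkcd (log2 fold change -0.69, adjusted p = 0.00273) fell most, and Card9 and Bcl10 also fell. Syk, Fcer1g and Tyrobp, the kinase and the adaptors next to the receptors, did not pass the test. Their log2 fold changes were -0.14, -0.49 and -0.32.

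The inflammasome list also held Ripk2, a kinase of Nod1 and Nod2 signalling. Of its 9 tested genes, 7 fell and 0 rose, beside 13.9% and 15.0% of all tested genes. Il1b, the cytokine that caspase-1 matures, had 651, 219 and 304 in the PEG-fused PNAs, 2071, 3559.7 and 2405 in the NC PNAs, and 83.7 and 85.1 in the Unop nerves (log2 fold change -2.89, adjusted p = 0.00148). Aim2, a sensor of cytosolic DNA (log2 fold change -1.88, adjusted p = 0.00297), Casp1 (log2 fold change -1.60, adjusted p = 0.00137) and Casp4 (log2 fold change -1.10, adjusted p = 0.00247) followed, and Pycard, Ripk2 and Gsdmd also fell. Nek7 and Il18 did not pass the test. Of 6 sensors of cytosolic nucleic acid, 2 fell, Dhx58 (log2 fold change -1.95, adjusted p = 0.00785) and Tmem173, which encodes STING (log2 fold change -1.40, adjusted p = 0.000529).

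Of 9 endogenous ligands, 2 rose and 0 fell in PEG-fused relative to NC PNAs, beside 15.0% and 13.9% of all tested genes. These were the proteoglycans Bgn (log2 fold change 0.85, adjusted p = 0.00823) and Vcan (log2 fold change 0.52, adjusted p = 0.0457), matrix proteins that can act on Tlr2 and Tlr4. Fibroblast markers moved in that direction too, 3 of 4 being higher in PEG-fused than in NC PNAs, and their part was not tested. Of 7 other lectin receptors, 2 fell: Cd69, an activation marker of lymphocytes (log2 fold change -3.55, adjusted p = 0.00200), and Ly75, an uptake receptor of dendritic cells (log2 fold change -2.80, adjusted p = 0.000905). The macrophage lectins Mrc1 and Siglec1 had log2 fold changes of -0.087 and -0.093 between PEG-fused and NC PNAs, which did not pass the test.

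**Figure D5:**
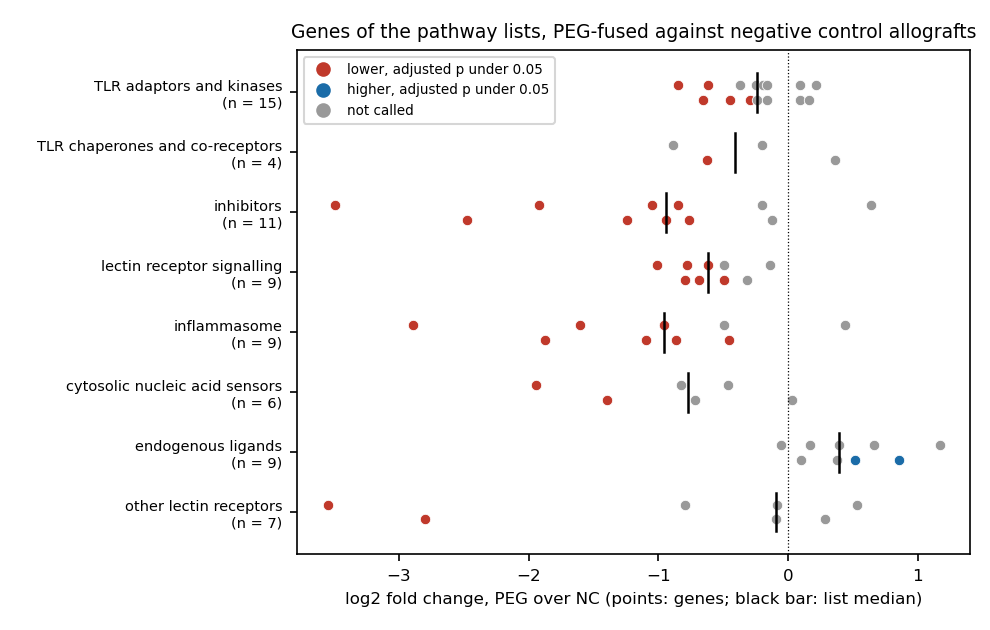
Log2 fold change of PEG-fused over NC PNAs (x axis, log2(normalized read count + 1) scale) for the tested genes of 8 pathway lists, 1 point per gene, with the median of each list as a black bar. Red points fell and blue points rose past the threshold; the medians lie left of 0 for all lists but the endogenous ligands, at -0.96 for the inflammasome and -0.94 for the inhibitors.

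Against Unop nerves, where 29.1% of all tested genes had risen in PEG-fused and 32.2% in NC PNAs, the lectin signalling genes had risen in 7 of 9 cases in PEG-fused and 9 of 9 in NC PNAs, and the inhibitors in 6 and 9 of 11. The genes of the inflammasome list had risen in 6 and 8 of 9 cases, the adaptors and kinases in 9 and 10 of 15, the chaperones in 1 and 3 of 4, the nucleic acid sensors in 3 and 5 of 6, the endogenous ligands in 5 and 4 of 9 and the other lectin receptors in 6 and 4 of 7. The genes of these lists that fell in both kinds of PNA were Tab1 and Tab3 of the adaptors and kinases, Nek7 of the inflammasome, Podxl and Hmgb1 of the ligands and Cd209a of the other lectin receptors, and the inhibitor Sarm1 fell in NC PNAs.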

How the data were processed

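Poly-A-selected libraries of sciatic nerve tissue from 3 PEG-fused and 3 NC PNAs and 2 Unop nerves were compared as labelled, 1 library per animal. The deposited signal values are normalized read counts. According to the submitters' processing notes and the methods, the authors ran FastQC and aligned with TopHat2 (Rnor 6.0). HTSeq gave the counts per gene, which DESeq2 scaled by a median-of-ratios factor for each library. Tool versions and the strand setting of the counting are not given in the sources used here. The authors' fold changes, standard errors, Wald statistics and p-values were not used.

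Of the normalized values, 100% were whole reads within 0.001 once multiplied by the size factor of the library, and 32472925 to 39959620 reads per library lay on genes. Of 22798 genes with a read, the 16478 that reached 10 normalized read counts in 2 or more libraries were tested. The test was limma 3.58.1 (trend) in R 4.3.3 on log2(normalized read count + 1), with a group-means model of the 8 libraries and Benjamini-Hochberg adjustment over the tested genes, and 0.05 as the threshold. The groups share 1 estimate of the spread, on which the comparisons with 2 Unop nerves rest. The quasi-likelihood test of edgeR 4.0.16 with TMM factors, run on the recovered reads, called 2553 genes higher and 2424 lower in PEG-fused than in NC PNAs, beside 2477 and 2286 by limma. Alternatives were edgeR, DESeq2 1.42.0, TMM rescaling, a pseudocount of 8, no filter, a robust fit, a filter of 50 counts, a fit of only the 2 groups compared, a replicate block, a log2 fold change beyond 1 and each library left out in turn. On simulated counts with 200 changed genes of 16134, limma recovered 198 for PEG-fused against NC PNAs with 7 false calls. These numbers describe the simulated counts only, and recovery at the fold changes and spread of the genes examined here was not tested.

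The genes examined, the pathway lists and the marker lists were chosen with earlier results of these data known. Every gene past the filter is named. Values in every library are given for the 6 largest changes past the threshold in each direction between PEG-fused and NC PNAs and for the 4 largest in each direction against Unop nerves. Those of Tlr2, Tlr7, Tlr8, Nod1, Ly86, Clec4d, Clec4e, Clec12a, Socs1, Il1b, Xcr1 and Batf3 were added after the values had been seen. Of each pathway list, up to 4 genes past the threshold are given with values. A few listed genes were not tested for want of reads or are not reported here. Promoter windows are from RefSeq (GRCr8), where 44 of the 45 genes were matched by symbol and 36 had a window. Python 3.11.15 with pandas 2.3.3 and Matplotlib 3.10.9 was used for tables and figures.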

Additional observations from a re-analysis of the deposited data

How the results depend on the processing

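Decreases in PEG-fused relative to NC PNAs numbered 26 of 45 genes, 17 with a log2 fold change beyond 1 required, and 16 to 26 with 1 library left out, with 16 without PEG 2, 19 without NC 3 and 23 without NC 1. Over all 16478 tested genes, decreases numbered 2286 with every library, 1390 without PEG 2, 1720 without NC 3 and 2088 without NC 1. Increases in that comparison numbered 1, and 2 with edgeR, with DESeq2, with a pseudocount of 8 and with only the 2 groups compared, and 1 to 2 with 1 library left out (2 without Unop 1 or Unop 2), Clec2dl1 being the gene added. Against Unop nerves, 3 genes in PEG-fused and 1 in NC PNAs had fallen with a log2 fold change beyond 1 required, and 4 to 5 and 1 to 2 with 1 library left out (1 without Unop 1 in NC PNAs). Increases over Unop nerves stayed at 32 to 33 and 32 to 35 with 1 library left out. Over the log2 fold changes of the 45 genes in the 3 comparisons and all alternatives, 2172 kept direction and side of the threshold, 68 lost the call, 12 gained it and 28 changed sign, all of the last in values that did not pass the threshold. The cause of these changes was not tested.

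The values that changed sign with 1 library left out were, in PEG-fused against NC PNAs, -0.18 to 0.089 for Clec14a, -0.14 to 0.039 for Clec16a, -0.98 to 0.0091 for Clec1b, -0.31 to 0.26 for Clec2d and -0.026 to 0.54 for Clec4d. In PEG-fused PNAs against Unop nerves they were -0.17 to 0.10 for Clec16a, -1.15 to 0.39 for Clec1b and -0.44 to 0.47 for Clec2l, and in NC PNAs against Unop nerves -0.23 to 0.080 for Clec12b, -0.15 to 0.13 for Clec16a, -0.30 to 0.025 for Clec1a and -0.64 to 0.90 for Clec1b. In the last comparison Clec16a also had 0.0029 with edgeR and 0.0060 with TMM rescaling, and Clec1b -0.038 with edgeR and -0.028 with DESeq2.

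Libraries with the same number did not deviate together in every pair of PEG-fused and NC PNAs (correlations 0.108, 0.109 and -0.0502 across genes), and not every library correlated best with its own number. With the replicate block, 23 genes fell and 1 rose in PEG-fused relative to NC PNAs, 33 rose and 6 fell in PEG-fused PNAs and 35 rose and 2 fell in NC PNAs relative to Unop nerves, and Clec2l had -0.028 in PEG-fused PNAs against Unop nerves. Over all tested genes, 2055 fell and 2110 rose in PEG-fused relative to NC PNAs with the block, beside 2286 and 2477 without it. The calls that the block ended were those of Cd14, Tlr5 and Tlr9 between PEG-fused and NC PNAs (adjusted p of 0.0954, 0.0546 and 0.0503), and Clec1a in PEG-fused PNAs against Unop nerves was added (adjusted p = 0.0193). Clec2e in NC PNAs against Unop nerves passed with a pseudocount of 8 (adjusted p = 0.0401). Clec4n, Clec4b2, Clec1b and Clec2e had under 50 reads in every library, which limits what could be detected in them.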
